A study of Mus musculus with 8 samples.

Results

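The genes described here make, package, clear and sense the inhibitory transmitter GABA, or set the chloride gradient that it works through. They are 9 genes, Gad1, Gad2, Slc32a1, Slc6a11, Abat, Slc12a5, Slc12a2, Gabbr1 and Gabbr2, and all 16 array probes that the files assign to them were taken, of 30175 gene names and 39429 probes in all. They were measured in the striatum of adult male C57Bl/6j mice, 4 heterozygous for a gene trap in Brd2 and 4 wildtype. Both groups came from matings of Brd2+/- females with Brd2+/- males at backcross generation 7, with an average of 99% of the background from C57Bl/6J, and genotypes were read by PCR across the trap junction. Brd2 encodes a reader of acetylated histones, and the series' title names loss of 1 copy of it and remodelled synaptic transmission in male striatum. RNA of each mouse was labelled with Cy3 (mice 1 and 3) or Cy5 (mice 2 and 4), and 2 mice of the same genotype shared each of the 4 arrays.

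GABA is made from glutamate by glutamate decarboxylase, loaded into synaptic vesicles, released, and taken back up by neurons and astrocytes, where it is broken down in mitochondria. Most neurons of the striatum are GABAergic projection neurons, so the synthesis and loading genes are abundant there. At its ligand-gated channels GABA inhibits a mature neuron because chloride is kept low inside the cell, and at the GABA-B receptor it acts through G proteins that open potassium channels and restrain transmitter release.

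Gad1, Gad2, Slc6a11 and Slc12a2 were read by 1 probe each, Slc32a1, Abat and Slc12a5 by 2, and Gabbr1 and Gabbr2 by 3. Slc32a1, Slc12a5 and Gabbr1 are each read at places far apart along their transcripts, and the probes of a gene did not always give the same difference, so the upstream probes of these genes are shown. Each is 60 bases, given 5′ to 3′ as in the deposited files, with the position on mouse build mm9 that the files give, and holds no stop codon in at least 1 reading frame.
Slc32a1 A_55_P1985286, plus strand, chr2:158440166-158440225: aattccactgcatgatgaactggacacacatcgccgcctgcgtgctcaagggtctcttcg
Slc12a5 A_55_P2087544, plus strand, chr2:164804887-164804946: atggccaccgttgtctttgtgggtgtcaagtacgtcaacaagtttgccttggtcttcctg
Gabbr1 A_55_P2082135, plus strand, chr17:37206959-37207018: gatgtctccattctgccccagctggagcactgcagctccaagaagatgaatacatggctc
Gabbr1 A_51_P464900, plus strand, chr17:37209174-37209232: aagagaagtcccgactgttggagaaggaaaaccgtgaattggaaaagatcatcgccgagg
These probes lie 1158, 4765, 1650 and 1247 transcript bases upstream of the last probe of their gene, in the order shown. The last probes are A_52_P138926 for Slc32a1, A_52_P557129 for Slc12a5 and A_52_P16232 for Gabbr1.

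Between 16398 (heterozygous mouse 3) and 24867 (heterozygous mouse 2) probes stood well above background in a sample, and the median spot was 3.75 to 10.5 times its background. Neither Brd2 probe was lower in the mice labelled heterozygous. A_55_P1958678 averaged 11.74 ± 0.07 in heterozygous mice and 11.46 ± 0.64 in wildtype mice (log2 intensity, SD, n = 4 each), and A_55_P1953545 averaged 8.01 ± 0.18 in heterozygous mice and 7.13 ± 0.26 in wildtype mice. The labels do not say where the trap sits relative to these probes, so they do not check the genotypes. One label field names heart left atrium in place of striatum. Of 12 striatal projection neuron markers, 11 were well above background in all 8 samples, against 1 of 8 markers of atrial muscle (Myl4). The other atrial markers were well above background in 7 samples (Nppa and Tnnt2), 2 (Sln and Tnni3), 1 (Myh6) or none (Myl7 and Actc1). On the same array, 2 samples correlated at 0.986 to 0.989 over probes, against 0.925 to 0.959 for samples of different arrays. The fits therefore carried the array as a block, since each array holds 1 genotype.

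No probe of the 9 genes differed between genotypes past the test. Heterozygous mice read higher than wildtype mice for the vesicular GABA transporter Slc32a1 at both probes and for the synthesis gene Gad1, and lower for the astrocyte GABA transporter Slc6a11, but each 95% interval covered 0. In dissected tissue, fewer cells of a type and less RNA per cell cannot be told apart. Differences are heterozygous minus wildtype in log2 intensity, from a limma model of genotype and dye in which the array was a random block, with p-values adjusted by Benjamini-Hochberg over all probes tested. Of the 16 probes, 6 had no spot flagged by the scanner software as non-uniform and were above background often enough to be tested. Among these 6 probes of 5 genes, 0 passed an adjusted p of 0.05, where 0% of 18399 probes did, and 0 had an unadjusted p under 0.05, where 8.05% of all probes did. The 6 adjusted p-values lay between 0.66 and 0.977, 3 differences were above 0 and 3 below, and their median was -0.0094 against -0.022 over all probes tested, of which 47.6% were above 0.

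Another 8 probes, Gad1 and Gad2 among them, carried 26 flagged spots between them and were fitted with those spots kept. Flags were common among bright spots, at 17.4% of spots with a log2 intensity of 12 to 14 and 0.581% below 8. With flagged spots kept, 14 probes of all 9 genes were tested among 22288 probes, and again 0 passed an adjusted p of 0.05, where 0% of all probes did. At an unadjusted p under 0.05 there were likewise 0 of the 14, where the share of all probes was 8.83%. Of the 14 differences 11 were above 0, against 49.1% of all probes, with a median of 0.26 against -0.0076 over all probes. These 14 values are not independent, since several probes share a gene. The median size of the difference, regardless of sign, was 0.31 over the 14 and 0.27 over all probes. In 11 of the 14 the larger gap between arrays of 1 genotype was at least as large as the difference between genotypes. Each array mean is of 2 mice and each genotype mean of 4. The same count was not made over all probes, so it is not read as a trait of these genes.

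**Figure D1:**
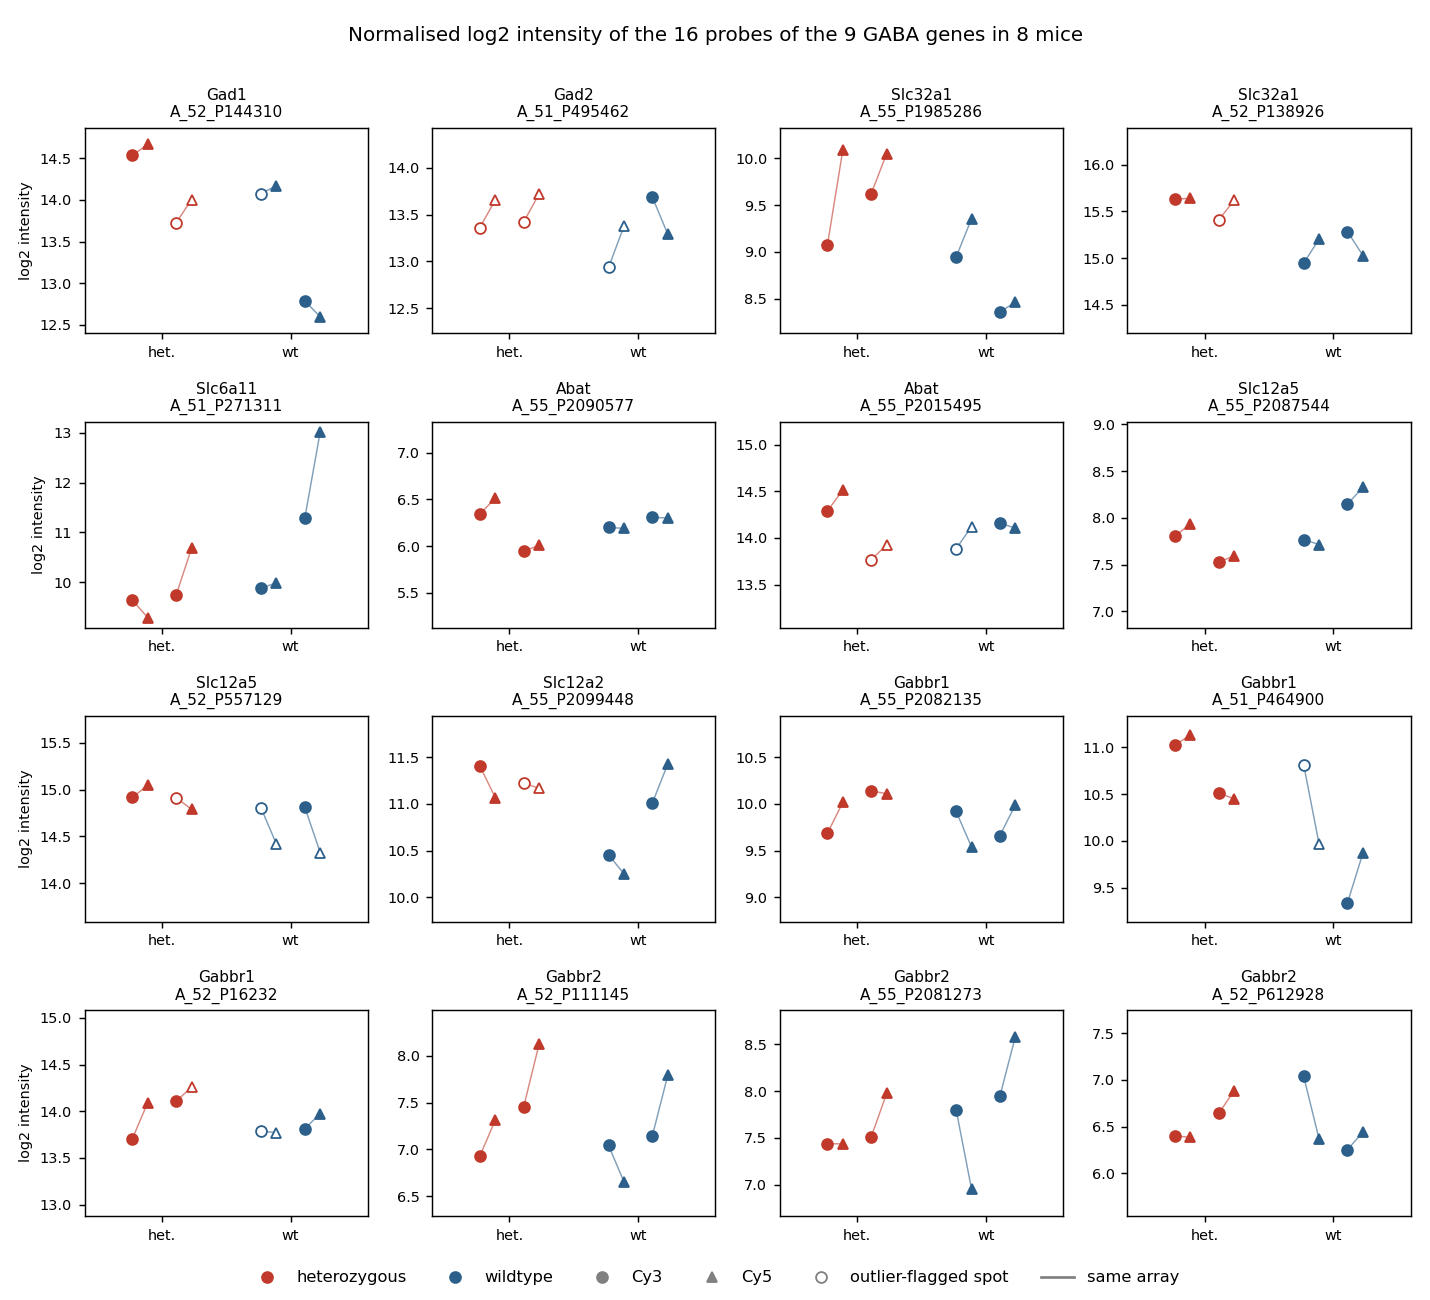
Normalised log2 intensity (vertical axes, a scale of its own in each panel) of the 16 probes in heterozygous (red, left) and wildtype (blue, right) mice. Circles are Cy3 and triangles Cy5, lines join the 2 mice of an array, and open symbols are spots with an outlier flag. Only for Slc32a1 A_52_P138926 do all 4 heterozygous mice sit above all 4 wildtype mice, at 15.41 to 15.64 against 14.95 to 15.29.

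Gad1 encodes GAD67, the decarboxylase that makes most of the GABA in the brain. Its probe A_52_P144310 read 14.54, 14.67, 13.72 and 14.00 in heterozygous mice 1 to 4 and 14.08, 14.17, 12.79 and 12.60 in wildtype mice 1 to 4, with flagged spots in heterozygous mice 3 and 4 and wildtype mouse 1. Wildtype mice 3 and 4, which shared an array, were the lowest, and wildtype mice 1 and 2 lay within the heterozygous range. The means were 14.23 ± 0.44 in heterozygous mice and 13.41 ± 0.83 in wildtype mice (SD, n = 4 each), 1.77-fold higher in heterozygous mice. The difference was 0.82 (SE 0.47, 95% interval -0.24 to 1.89, limma adjusted p = 0.691), and 8.25% of all probes lay at least as far from 0. It came to 0.70 within Cy3 and 0.95 within Cy5. The size depended on which wildtype array was used: without the array of wildtype mice 3 and 4 it was 0.11, and without that of wildtype mice 1 and 2 it was 1.54 (adjusted p = 0.152).

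Gad2 encodes GAD65, the decarboxylase that sits on synaptic vesicles at nerve endings. Probe A_51_P495462 read 13.36, 13.66, 13.42 and 13.72 in heterozygous mice and 12.93, 13.38, 13.69 and 13.29 in wildtype mice, and 6 of the 8 spots were flagged, those of wildtype mice 3 and 4 being the exceptions. The groups overlapped, with wildtype mouse 1 the lowest of the 8. The means, 13.54 ± 0.18 in heterozygous mice and 13.32 ± 0.31 in wildtype mice, differed by 0.22 (SE 0.42, 95% interval -0.72 to 1.15, adjusted p = 0.949). Of the wildtype mice with low Gad1, mouse 3 was the second highest of all for Gad2 and mouse 4 lay below every heterozygous mouse.

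Slc32a1 encodes the vesicular transporter that loads GABA and glycine into synaptic vesicles. Its upstream probe A_55_P1985286 read 9.07, 10.09, 9.62 and 10.05 in heterozygous mice and 8.94, 9.35, 8.36 and 8.46 in wildtype mice, with no flagged spot. Heterozygous mice 2, 3 and 4 lay above every wildtype mouse, and heterozygous mouse 1 lay below wildtype mouse 2. With means of 9.71 ± 0.47 in heterozygous mice and 8.78 ± 0.46 in wildtype mice (1.91-fold), the difference was 0.93 (SE 0.44, 95% interval -0.064 to 1.93, adjusted p = 0.66). Its unadjusted p of 0.0635 was the lowest of the 6 tested probes, and 4.41% of all probes lay at least as far from 0. The gap was 0.70 within Cy3 and 1.17 within Cy5. With 1 mouse or array left out it ranged from 0.56 without the array of wildtype mice 3 and 4 to 1.30 without that of wildtype mice 1 and 2. With the signals that the scanner software had processed it was 0.26, and after removing a spatial trend 0.57.

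The downstream Slc32a1 probe A_52_P138926 read 15.63, 15.64, 15.41 and 15.62 in heterozygous mice and 14.95, 15.21, 15.29 and 15.03 in wildtype mice, with flagged spots in heterozygous mice 3 and 4. All 4 heterozygous mice stood above all 4 wildtype mice, the only one of the 14 probes with no overlap. With flagged spots kept, 9.14% of all probes had groups that did not overlap with heterozygous mice higher, so 1 of 14 is near the background. Means of 15.58 ± 0.11 in heterozygous mice and 15.12 ± 0.16 in wildtype mice gave a 1.37-fold ratio and a difference of 0.46 (SE 0.31, 95% interval -0.23 to 1.15, adjusted p = 0.752). As many as 28.2% of all probes lay at least as far from 0. Both Slc32a1 probes were thus higher in heterozygous mice on average, the upstream one by more, with intervals that overlap.

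Slc6a11 encodes GAT-3, which takes up GABA mainly into astrocytes and is abundant in thalamus and brain stem. Probe A_51_P271311 read 9.65, 9.29, 9.74 and 10.68 in heterozygous mice and 9.88, 9.99, 11.28 and 13.01 in wildtype mice, with no flagged spot. Wildtype mice 3 and 4 were high, and heterozygous mouse 4 stood above wildtype mice 1 and 2. The means were 9.84 ± 0.59 in heterozygous mice and 11.04 ± 1.46 in wildtype mice, a 0.435-fold ratio. The difference of -1.20 was the largest in size of the 14 and had the widest interval (SE 1.01, 95% interval -3.48 to 1.08, adjusted p = 0.863). Of all probes tested, 1.55% lay at least as far from 0. The 2 wildtype arrays were 2.21 apart, more than the genotypes were. Without the array of wildtype mice 3 and 4 the difference was -0.096, and without that of wildtype mice 1 and 2 it was -2.31 (adjusted p = 0.296).

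Abat encodes GABA transaminase, the mitochondrial enzyme that breaks GABA down. Probe A_55_P2015495 read 14.29, 14.51, 13.77 and 13.93 in heterozygous mice and 13.89, 14.12, 14.16 and 14.11 in wildtype mice, with flagged spots in heterozygous mice 3 and 4 and wildtype mice 1 and 2. The wildtype values lay inside the heterozygous range. Its difference of 0.057 (SE 0.28, 95% interval -0.58 to 0.69, adjusted p = 0.984) was the smallest in size of the 14 probes, exceeded or equalled by 88.2% of all probes. The other Abat probe, A_55_P2090577, was not well above background in any of the 8 samples and was not tested.

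Slc12a5 encodes KCC2, the neuronal exporter that keeps chloride low. Upstream probe A_55_P2087544 read 7.80, 7.94, 7.53 and 7.59 in heterozygous mice, in 3 of which it was well above background, and 7.77, 7.71, 8.15 and 8.33 in wildtype mice, in all 4 of which it was. Wildtype mice 3 and 4 were the highest and the other wildtype mice lay within the heterozygous range. Means of 7.72 ± 0.19 in heterozygous mice and 7.99 ± 0.30 in wildtype mice gave a difference of -0.27 (SE 0.27, 95% interval -0.87 to 0.33, adjusted p = 0.896). It was -0.026 without the array of wildtype mice 3 and 4.

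The downstream Slc12a5 probe A_52_P557129 differed in the other direction. It read 14.92, 15.05, 14.92 and 14.79 in heterozygous mice and 14.81, 14.42, 14.82 and 14.33 in wildtype mice, with flagged spots in heterozygous mouse 3 and wildtype mice 1, 2 and 4. Heterozygous mouse 4 lay just below wildtype mice 1 and 3, so the groups overlapped. The difference was 0.33 (SE 0.34, 95% interval -0.43 to 1.08, adjusted p = 0.873). The intervals of both probes cover 0 and overlap each other, so the 2 probes give no direction for Slc12a5.

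Slc12a2 encodes NKCC1, the importer that raises chloride inside cells. Probe A_55_P2099448, on chromosome 18, read 11.40, 11.07, 11.22 and 11.17 in heterozygous mice and 10.45, 10.25, 11.01 and 11.43 in wildtype mice, with flagged spots in heterozygous mice 3 and 4. Wildtype mouse 4 was the highest of the 8 and the other wildtype mice were the 3 lowest. The means, 11.21 ± 0.14 in heterozygous mice and 10.78 ± 0.53 in wildtype mice, differed by 0.43 (SE 0.42, 95% interval -0.52 to 1.38, adjusted p = 0.866). Without the array of wildtype mice 1 and 2 the difference was -0.0019, and without that of wildtype mice 3 and 4 it was 0.86.

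Gabbr1 encodes the subunit of the GABA-B receptor that binds GABA. It lies on chromosome 17, 2.95 Mb from Brd2. Upstream probe A_55_P2082135 read 9.69, 10.02, 10.14 and 10.11 in heterozygous mice and 9.92, 9.54, 9.66 and 9.99 in wildtype mice, with no flagged spot. Probe A_51_P464900 read 11.02, 11.13, 10.51 and 10.45 in heterozygous mice and 10.81, 9.96, 9.34 and 9.87 in wildtype mice, where mice 1 and 2 had flagged spots. Downstream probe A_52_P16232 read 13.70, 14.09, 14.11 and 14.26 in heterozygous mice and 13.79, 13.77, 13.81 and 13.98 in wildtype mice, with flagged spots in heterozygous mouse 4 and wildtype mice 1 and 2. The groups overlapped at each probe, by a single wildtype mouse in the case of A_51_P464900.

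All 3 Gabbr1 differences were above 0 and none passed the test. They were 0.21 for A_55_P2082135 (SE 0.37, 95% interval -0.63 to 1.06, adjusted p = 0.957) and 0.78 for A_51_P464900 (SE 0.62, 95% interval -0.61 to 2.18, adjusted p = 0.80). For A_52_P16232 the difference was 0.20 (SE 0.27, 95% interval -0.41 to 0.82, adjusted p = 0.916), and it was -0.30 with the scanner's processed signals. With those signals A_51_P464900 differed by 0.37. The difference of A_51_P464900 was 0.39 without the array of wildtype mice 3 and 4 and was 1.18 without that of wildtype mice 1 and 2. Because the 3 probes lie along 1 transcript, they are repeated readings of the same RNA and not replicates.

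Gabbr2 encodes the subunit that couples the receptor to G proteins and carries it to the cell surface. Its 3 probes were dim, and none was well above background in all 8 samples. A_52_P111145 read 6.93, 7.31, 7.45 and 8.12 in heterozygous mice and 7.04, 6.65, 7.14 and 7.79 in wildtype mice, and was well above background in 2 mice of each genotype. A_55_P2081273 read 7.44, 7.44, 7.51 and 7.98 in heterozygous mice and 7.80, 6.95, 7.95 and 8.58 in wildtype mice, and was well above background in 3 heterozygous and 4 wildtype mice. The groups overlapped at both probes, with heterozygous mouse 4 the highest of the 8 at A_52_P111145 and wildtype mouse 4 at A_55_P2081273. The differences were 0.30 (SE 0.53, 95% interval -0.91 to 1.50, adjusted p = 0.958) and -0.23 (SE 0.66, 95% interval -1.73 to 1.27, adjusted p = 0.977), so the probes gave no common direction. A_52_P612928 was well above background in 1 heterozygous mouse and in no wildtype mouse and was not tested.

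**Figure D2:**
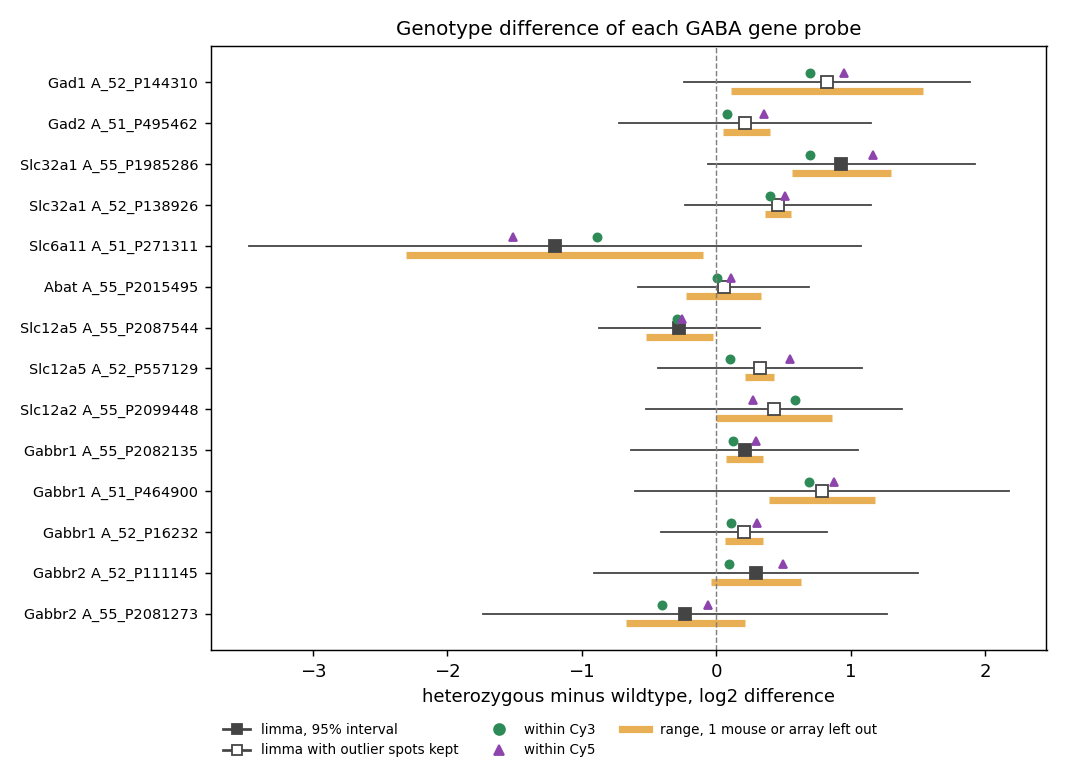
Heterozygous minus wildtype difference in log2 intensity (horizontal axis) of the 14 probes that could be fitted. Squares with black lines are limma estimates with 95% intervals, open where flagged spots were kept, green circles and purple triangles are the differences within Cy3 and Cy5, and orange bars are the range when 1 mouse or 1 array was left out. Every interval covers 0, and the orange bar of Slc6a11 runs from -2.31 to -0.096.

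The other genes of these pathways were read by their brightest probe and set beside 15063 genes with a tested probe. Of those, 0% passed the adjusted test, 8.13% had an unadjusted p under 0.05 and 46.7% had a difference above 0. Of 15 genes that supply precursor and cofactor, break GABA down or carry it and its precursors, 11 were tested, 0 passed, and 6 were above and 5 below 0, with a median difference of 0.095 against -0.030 over all genes. The lowest unadjusted p belonged to Pdxk, pyridoxal kinase, which makes the cofactor of both decarboxylases and of Abat. It averaged 10.02 ± 0.13 in heterozygous mice and 9.46 ± 0.24 in wildtype mice, a difference of 0.57 (SE 0.31, adjusted p = 0.722), with 0.55 at its other probe and 0.31 with the scanner's processed signals. Aldh9a1, which can make GABA from putrescine-derived aldehyde, differed by 0.43 (adjusted p = 0.808). Aldh5a1, succinic semialdehyde dehydrogenase, the step after Abat, differed by 0.24 (adjusted p = 0.896), and the glutamine carrier Slc38a2 by -0.28 (adjusted p = 0.932). With 1 wildtype array left out, Slc38a2 differed by -0.48 (without mice 1 and 2) or -0.077 (without mice 3 and 4). Aldh5a1 differed by 0.14 without the array of wildtype mice 1 and 2 and by 0.52 with processed signals.

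Of 13 genes of chloride cotransport, its kinases, channels and carbonic anhydrases, 12 were on the array and 9 were tested, with 0 past the test and a median of 0.12. One, Slc12a9, an orphan member of the cation-chloride cotransporter family, had an unadjusted p under 0.05, which is 1 of 9 beside the 8.13% of all genes. It averaged 9.12 ± 0.40 in heterozygous mice and 8.18 ± 0.53 in wildtype mice, a difference of 0.95 (SE 0.35, adjusted p = 0.543). Without the array of wildtype mice 1 and 2 the difference was 0.50, and without that of heterozygous mice 3 and 4 it was 0.61, both with an unadjusted p above 0.05. Wnk1, a kinase upstream of the cotransporters, differed by 0.43 at the probe used (adjusted p = 0.752) and by -0.46 at its other probe, with 0.20 to 0.66 at the probe used when 1 mouse or array was left out. Car7, a neuronal carbonic anhydrase, differed by -0.32 (adjusted p = 0.799), but by -0.028 with the scanner's processed signals. The kinase Wnk2 differed by 0.28 (adjusted p = 0.914), and by 0.056 without the array of wildtype mice 1 and 2 and 0.51 without that of wildtype mice 3 and 4.

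Among 14 partners and effectors of the GABA-B receptor, 9 were tested and 0 passed. Of these 9, 6 were above and 3 below 0, where 46.7% of all genes were above 0, and their median was 0.095. Rgs7, which speeds the shut-off of the G proteins the receptor uses, averaged 9.69 ± 0.22 in heterozygous mice and 10.32 ± 0.17 in wildtype mice. Its difference was -0.63 (SE 0.30, adjusted p = 0.669), and -0.26 with the scanner's processed signals. Gnao1, a G protein alpha subunit, differed by 0.81 (adjusted p = 0.792) and by 0.42 at its other probe. Rgs9, the striatal relative of Rgs7, differed by 0.83 (adjusted p = 0.878) at the probe used and by 0.75 at its other tested probe. At the probe used it was -0.041 without the array of wildtype mice 3 and 4. The auxiliary subunit Kctd8 differed by 0.54 (adjusted p = 0.899), or 0.25 with processed signals and 0.31 without wildtype mouse 4.

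All 6 transcription factors of developing GABA neurons were tested, and 0 passed. The 6 differences were below 0, with a median of -0.30, where 46.7% of all genes were above 0. Dlx2, which with its neighbour Dlx1 switches on GABA synthesis genes in the forebrain, differed by -0.69 (SE 0.50, adjusted p = 0.818), -0.105 without the array of heterozygous mice 1 and 2, and -1.27 without that of heterozygous mice 3 and 4. Lhx6, a factor of cortical and striatal interneurons, differed by -0.33 (adjusted p = 0.855) at the probe used and by 0.75 at its other probe. At the probe used it was -0.57 without the array of wildtype mice 1 and 2, -0.086 without that of wildtype mice 3 and 4, and 0.024 with processed signals. Dlx1 differed by -0.39 (adjusted p = 0.908), from -0.60 without the array of wildtype mice 3 and 4 to -0.19 without that of wildtype mice 1 and 2.

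Marker lists of cell types in and around the striatum varied between mice. Each average is the mean log2 intensity over the genes of a list that were tested. Markers of thalamic and septal neurons averaged 8.60, 8.88, 10.07 and 11.07 in heterozygous mice and 8.88, 9.42, 10.41 and 11.95 in wildtype mice. This mean is of 4 of the 6 genes (Tcf7l2, Prkcd, Lef1 and Zic1), each well above background in all 8 samples. Wildtype mouse 4 was highest in both this list and Slc6a11, whereas heterozygous mouse 3 stood above wildtype mice 1 and 2 in the list and below them in Slc6a11. Astrocyte markers averaged 11.59, 11.50, 11.61 and 11.93 in heterozygous mice and 11.40, 10.82, 11.83 and 12.24 in wildtype mice, and 7 of the 8 were well above background in all 8 samples. Choroid plexus markers ran from 8.34 to 11.01 in heterozygous mice and from 6.88 to 11.29 in wildtype mice, with 2 of 8 well above background in all samples. Their part in the Slc6a11 values was not tested.

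Beside Gad1 and Slc32a1, the 9 tested of 12 striatal projection neuron markers averaged 12.48, 12.97, 12.71 and 12.78 in heterozygous mice and 12.51, 12.79, 12.53 and 11.68 in wildtype mice. Wildtype mouse 4, with the lowest Gad1, was the lowest here, and wildtype mouse 3, with the next lowest Gad1, was in the range of the others. Of the 9 markers tested 6 were above and 3 below 0 (median 0.47), where 46.7% of all genes were above 0. Only 1 of the 9 had an unadjusted p under 0.05, beside 8.13% of all genes. This was Pdyn, which was well above background in 4 samples. Markers of cortical excitatory neurons averaged 8.48, 7.71, 7.68 and 7.71 in heterozygous mice and 10.05, 8.19, 8.26 and 8.33 in wildtype mice, with 6 of 10 well above background in all 8 samples and Neurod6 and Emx1 among those in 4. Of the 8 tested cortical markers, 7 were below 0 (median -0.94), where 46.7% of all genes were above 0, and none passed the test. Wildtype mouse 1, at 10.05, stood apart from the other wildtype mice, at 8.19 to 8.33. Of 9 interneuron markers 7 were tested, 2 above and 5 below 0 (median -0.26). Oligodendrocyte markers averaged 11.96 to 12.46 in heterozygous mice and 11.70 to 12.38 in wildtype mice, and endothelial markers 9.32 to 9.70 in heterozygous mice and 9.48 to 9.62 in wildtype mice. In each of these lists 1 gene had an unadjusted p under 0.05, Mobp (difference 0.61, 5 tested) and Cldn5 (-1.07, 4 tested), and neither passed the test. The part of these lists in the GABA gene values was not tested.

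**Figure D3:**
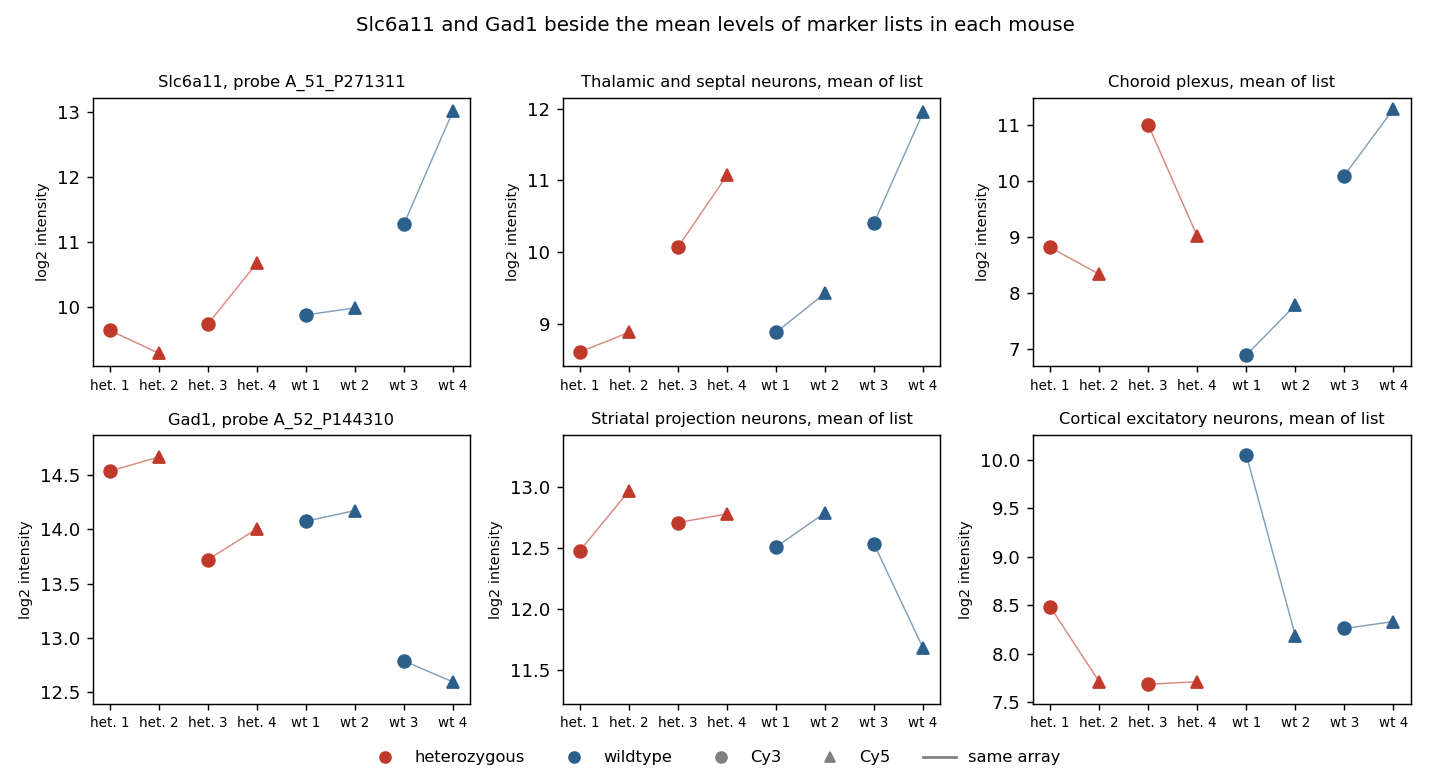
Log2 intensity (vertical axes, a scale of its own in each panel) of Slc6a11, Gad1 and the mean of the tested genes of 4 marker lists in each heterozygous (red, left) and wildtype (blue, right) mouse. Circles are Cy3, triangles are Cy5 and lines join the mice of an array. Wildtype mouse 4 is highest for Slc6a11 at 13.01 and for the thalamic and septal list at 11.95, and lowest for Gad1 at 12.60 and for the striatal list at 11.68.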

How the data were processed

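Total RNA from 8 striata was labelled and hybridised to 2-colour Agilent arrays, per the labels, and read with Agilent Feature Extraction 11.0.1.1, per the file headers. The deposited scanner files hold spot and background intensity per channel, and processed intensity that the scanner software corrected for background and dye, per the file headers. The authors' deposited value table holds a linear ratio, the median signal minus median background divided by the column median. This was found from the values, of which 100% matched within a tolerance of 1e-06. Column medians are 1, with no centring across samples. Of the probes in it, 8 to 42 are empty per Cy3 column and 10844 to 14151 per Cy5 column. The labels state no further step.

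From the deposited intensities, log2 values were computed with normexp (offset 50), loess and Aquantile in limma 3.58.1 and R 4.3.3. Control spots were left out. Of 39429 probes, 22288 were well above background in at least 4 of 8 samples, and the 18399 of these without an outlier-flagged spot were tested. Genotypes were compared in a model with a dye term (lmFit, eBayes) in which the array was a random block (correlation 0.81), and adjusted by Benjamini-Hochberg at 0.05. The 8 samples are separate mice, on 4 arrays of 1 slide, so the number of arrays limits the precision. The heterozygous arrays were at array positions 1 and 2 and the wildtype arrays at 3 and 4, so genotype and position cannot be told apart. No spot of the 16 probes was saturated. Every probe of the 9 genes is reported, and of each pathway list the 4 genes with the lowest unadjusted p, except that 1 such value is not reported here. The genes, lists and tests were chosen with earlier results of these data known. Names came from the files and, for 27234 probes, a RefSeq table of GRCm38.p6. Coordinates are on mm9, per the file headers. The fit was also run on data simulated from its own variances and array correlation. This checked only that inserted changes were recovered on average. The share of such changes that passed the test is not given here. The alternatives are given in the closing section.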

Additional observations from a re-analysis of the deposited data

Results flagged for a closer look

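In 2 of 32 groups of 4 mice, taken over both genotypes and all 16 probes, 1 mouse stood apart from the other 3 by Dixon's criterion at the 95% level, which chance meets in about 1 in 20 groups. For Slc32a1 A_52_P138926, heterozygous mouse 3 read 15.41 where the other heterozygous mice read 15.62 to 15.64, and its spot carried an outlier flag. For Gabbr2 A_55_P2081273, heterozygous mouse 4 read 7.98 where the others read 7.44 to 7.51.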

How the results depend on the processing

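No probe of the 9 genes passed an adjusted p of 0.05 under any alternative run (other background corrections and normalisations, the deposited value table, filters, designs, and leaving out mice or arrays). Combinations with flagged spots kept were chosen after seeing the data, and were not run for the 2 other filters on dim probes. Of the probes that could be tested, the number at an unadjusted p under 0.05 was 1 with array means, without the array block and without the filter on dim probes (Slc32a1 A_55_P1985286 each time). With flagged spots kept it was 1 with array means and 3 without the array block. With the replicate block the number was 2 (Slc32a1 A_55_P1985286 and Slc6a11), or 3 with flagged spots kept, Gad1 among them. No share of all probes is given for array means or the replicate block, so those counts are not read as a result about the 9 genes. The counts over all probes without the array block, which rose as well, and without the filter on dim probes are given at the end of this section. Whether the replicate numbers pair the mice could not be settled from the values. Same-numbered mice correlated at 0.0396 to 0.255 in their deviations, all above 0 but weak, and heterozygous mice 1 and 3 correlated best with another number. The number at an unadjusted p under 0.05 ranged from 0 to 2 when a mouse or array was left out, and from 0 to 4 with flagged spots kept, highest without the array of wildtype mice 1 and 2. Over all probes it ranged from 1067 to 2882 of 18399, or from 1479 to 3601 of 22288 with flagged spots kept. With a mouse or array left out, the median difference over the probes of the 9 genes ranged from -0.267 to 0.237, or 0.0988 to 0.365 with flagged spots kept.

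With flagged spots kept, the sign turned for Abat A_55_P2015495 in the deposited value table (-0.0757), for Gabbr1 A_52_P16232 with processed signals (-0.304) and after removing a spatial trend (-0.0358), and for Gad2 with processed signals (-0.0288). Lhx6 turned to 0.0235 with processed signals. Leaving out mice or arrays gave ranges across 0 for Abat A_55_P2015495 (-0.221 to 0.334, with -0.00779 without the array of wildtype mice 1 and 2 and -0.000541 without wildtype mouse 4), Gabbr2 A_52_P111145 (-0.0355 to 0.632), Gabbr2 A_55_P2081273 (-0.674 to 0.214), Slc12a2 (-0.00194 to 0.862) and Rgs9 (-0.0411 to 1.71). The cause was not tested.

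Over all probes, 1481 of 18399 had an unadjusted p under 0.05 (1968 of 22288 with flagged spots kept). This was 3876 without the array block (4978 kept) and 2860 of 35440 without the filter on dim probes. It was 718 with processed signals (918 kept) and 880 after removing a spatial trend (1199 kept). When a mouse or array was left out it was 1067 to 2882 (1479 to 3601 kept). The count past the test, 0 otherwise, was 1 with the deposited value table, 539 without the array block (997 kept) and 0 to 17 when a mouse or array was left out (0 to 32 kept), highest without the array of wildtype mice 1 and 2 and at 14 without that of wildtype mice 3 and 4 (20 kept) and 5 without that of heterozygous mice 3 and 4 (6 kept). Signal over background limits Gabbr2, whose probes were dim. The median spot was 3.75 to 5.3 times background in Cy5 samples and 6.48 to 10.5 times in Cy3 samples, while 22926 to 24867 probes were well above background in Cy5 samples and 16398 to 21872 in Cy3 samples.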
